A study of Saccharomyces cerevisiae with 17 samples.

Results

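Peaks obtained with an H3K4me2 antibody and with an H3K4me3 antibody in budding yeast lacking SET1 were compared with each other, to describe what each antibody recovers when the enzyme for both marks is missing. The members were all peaks of the deposited list of replicate 1 for each antibody, with no selection by score or width: 927 for the H3K4me2 antibody and 743 for the H3K4me3 antibody, together 1670 of the 10150 peaks in the 4 lists used from this series. The nuclear chromosomes carried 874 and 735 of these peaks and the mitochondrial genome (chrM) carried 53 and 8, and the 2 genomes were kept apart throughout.

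The series holds 17 libraries, from 4 genotypes with 2 replicates for each of 2 antibodies and 1 input without antibody, and 13 of them were not analysed here. Both libraries compared came from set1delta cells of strain BY4741A, grown exponentially in YPD (rich glucose medium) and fixed with formaldehyde. The antibodies were homemade rabbit polyclonal sera, labelled #27 where the title names H3K4me2 and #28 where it names H3K4me3. Peak lists of cps25_WT cells of the same strain, which carry SET1, were used for reference in a few places, and Cps25 is another name of Sdc1, a subunit of the Set1 complex. The SET1 ORF lay under no peak of either list, but a peak list cannot show whether a gene is deleted, so the genotype was taken from the labels.

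Set1 is the catalytic subunit of COMPASS, the complex that methylates lysine 4 of histone H3 in budding yeast, where no other enzyme for this residue is known. In cells that have it, trimethylation lies at the start of transcribed genes and dimethylation lies further into the gene body. A peak list made without the enzyme therefore shows the regions that an immunoprecipitation returns in the absence of its mark, and such lists are often used to clean those of cells with the mark. Highly transcribed genes, among them those that RNA polymerase III reads (tRNA genes and a few other small RNA genes), are known to come up in chromatin immunoprecipitation with unrelated antibodies.

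With 1 list for each antibody no test between antibodies could be made, and the differences below have no replicate check. Intervals in parentheses are exact 95% intervals over the peaks or genes counted, and they cover counting error only. Read depth is unknown for both libraries, so a longer list may reflect depth as well as the antibody, and these cannot be told apart. Scores are given as the percentile of a peak within its own list, where 100 is the highest score of that list. Positions are those of build sacCer3, and genes are those of the RefSeq table of R64, the same assembly.

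Most nuclear peaks of each antibody lay where the other antibody also had a peak. Of the 874 H3K4me2-antibody peaks, 540 overlapped an H3K4me3-antibody peak by at least 1 bp (61.8%, 58.5 to 65.0), and 334 did not. Of the 735 H3K4me3-antibody peaks, 539 overlapped an H3K4me2-antibody peak (73.3%, 70.0 to 76.5), and 196 did not. By bases, the lists covered 309.6 kb and 245.8 kb, and the 181.3 kb that they shared made up 58.6% of the former and 73.8% of the latter. On every one of the 16 chromosomes some peaks were shared, with a share of 44.2% to 81.8% of the H3K4me2-antibody peaks and 56.5% to 100% of the H3K4me3-antibody peaks.

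Over all nuclear peaks, the share of shared peaks rose with the score. In the lowest score quartile 30.1% of the H3K4me2-antibody peaks and 31.5% of the H3K4me3-antibody peaks were shared. In the highest quartile these shares were 93.2% (89.0 to 96.1) and 99.5% (97.0 to 100). For H3K4me2-antibody peaks over no annotated gene the rise was uneven, at 13.3%, 30.6%, 18.2% and 47.6% from lowest to highest quartile. Peaks of 1 antibody were also narrower. Shared peaks had median widths of 327 bp in the H3K4me2 list and 294 bp in the H3K4me3 list, whereas unshared peaks had medians of 188 bp and 186.5 bp, not far above the 146 bp of the narrowest peak in each list.

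**Figure D1:**
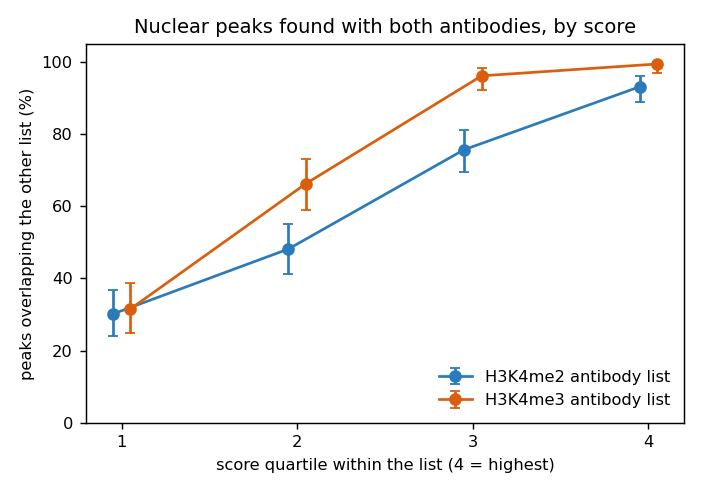
Share of nuclear peaks of each list that overlapped a peak of the other antibody by at least 1 bp (y axis, percent), by score quartile within the list (x axis, 4 is the highest). Points are shares and bars exact 95% intervals over peaks. The share rose in both lists with each quartile, from 30.1% to 93.2% for the H3K4me2 antibody and from 31.5% to 99.5% for the H3K4me3 antibody.

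The share of shared peaks differed with what lay beneath them, and so did the scores. Over tRNA genes 255 of 261 H3K4me2-antibody peaks and 255 of 256 H3K4me3-antibody peaks were shared. Over genes for small nucleolar RNAs (snoRNAs), which guide the modification of ribosomal RNA, 42 of 59 and 42 of 44 were shared. Peaks over open reading frames (ORFs) without an RNA gene were shared less often in these lists, in 198 of 407 (48.7%, 43.7 to 53.6) and 198 of 379 (52.2%, 47.1 to 57.4) cases. They also scored lower, with median percentiles of 27.2 and 28.7, against 81.4 and 81.3 over tRNA genes. In score quartile 3, 80.4% and 94.9% of these ORF peaks were shared, near the 75.7% and 96.2% of all nuclear peaks. In quartile 4, 12 of 13 and 4 of 4 were shared. In quartile 1 the shares were 33.7% and 26.95%. Regions without an annotated gene lay under 14.99% of the H3K4me2-antibody peaks and 5.99% of the H3K4me3-antibody peaks, or 27.1% and 8.71% when an overlap with a gene had to reach 50% of the shorter interval. The shares differed most there: 33 of 131 H3K4me2-antibody peaks (25.2%, 18.0 to 33.5) but 32 of 44 H3K4me3-antibody peaks (72.7%, 57.2 to 85.0) were shared.

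Nearly every nuclear tRNA gene lay under peaks of both antibodies. Of 275 tRNA genes, 257 were under both, 93.5% (89.9 to 96.1), against a background of 3.65% of the 6002 nuclear ORFs under both. A further 7 were under an H3K4me2-antibody peak alone, 2 under an H3K4me3-antibody peak alone and 9 under neither. The median percentile of the peaks over the 257 genes was 81.7 with the H3K4me2 antibody and 81.6 with the H3K4me3 antibody. The highest-ranked pair over tRNA genes covered YNCG0028W and YNCG0029C, a convergent pair on chromosome VII, at percentiles 99.0 and 99.5. SUP61, an essential serine tRNA gene, followed at percentiles 98.8 and 99.6, with peaks of 367 bp in each list whose ends differed by 1 bp (chrIII:227802-228168 and chrIII:227803-228169). YNCP0009W had peaks of 343 and 341 bp at percentiles 97.5 and 99.3.

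The tRNA genes outside this group were few, and some neighboured each other. The 9 genes under neither antibody were YNCB0015W and its neighbour YNCB0016W, SUP53 and SUP54, which encode leucine tRNAs, YNCC0008W, YNCC0009C, YNCJ0013C, YNCL0033C and YNCN0008C. Under the H3K4me2 antibody alone lay YNCH0015W, whose peak reached percentile 98.6, YNCL0008W at percentile 77.99 and YNCG0016C at percentile 72.5. YNCD0011W and YNCD0012W shared 1 such peak of 481 bp at percentile 49.7, and YNCE0021C and YNCP0017C completed the 7. YNCC0010C lay under an H3K4me3-antibody peak alone, at percentile 73.1 and 159 bp wide. YNCJ0011W was touched over 9 of its 72 bp by an H3K4me3-antibody peak that also covered its neighbour YNCJ0012W, a gene under both antibodies.

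On tRNA genes the peaks of both antibodies had nearly the same shape. Genes with a single peak had a median peak width of 318 bp with the H3K4me2 antibody (257 genes) and 289 bp with the H3K4me3 antibody (252 genes), for a median gene length of 73 bp. The peak held the whole gene in 98.8% of these genes with either antibody. Peak centres lay a median of 11 bp upstream of the gene's centre with the H3K4me2 antibody, an offset of -11 bp (-16.5 to -4), and the offset with the H3K4me3 antibody was -13.5 bp (-17.5 to -8). The peaks were thus centred on the gene, within a window a few times its own length.

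SnoRNA genes showed the clearest difference between the antibodies among the RNA genes. Of 76 nuclear snoRNA genes, 52 were under both antibodies, 68.4% (56.8 to 78.6), 16 under the H3K4me2 antibody alone, 2 under the H3K4me3 antibody alone and 6 under neither. With the upper 50% of each list by score, 34.2% were under both. With 1 peak per gene, the median width was 564.5 bp with the H3K4me2 antibody (46 genes) and 318.5 bp with the H3K4me3 antibody (34 genes). The H3K4me2-antibody peaks reached a median of 241.5 bp past the 3′ end of the gene and the H3K4me3-antibody peaks 71.5 bp. The whole gene lay inside the peak for 82.6% and 55.9% of these genes. Upstream of the gene they reached 126 and 46.5 bp, so the wider footprint of the H3K4me2 antibody extended on both sides and most of all downstream. At 300 bp downstream of the gene's centre 60.5% of all snoRNA genes lay under an H3K4me2-antibody peak and 28.9% under an H3K4me3-antibody peak.

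**Figure D2:**
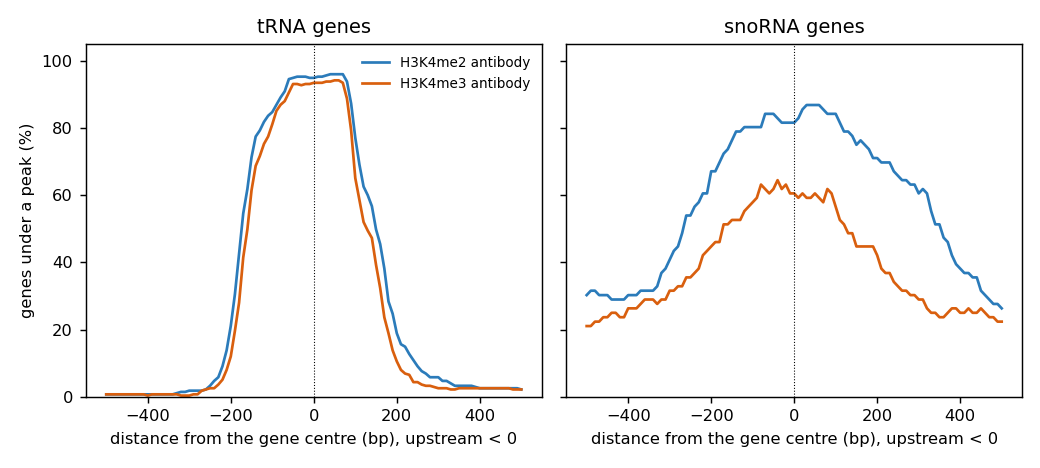
Share of the 275 nuclear tRNA genes (left) and the 76 snoRNA genes (right) that lay under a peak (y axis, percent) at each distance from the gene's centre in bp (x axis, upstream is negative), for each antibody. Over tRNA genes both curves stood near each other, at 94.9% and 93.5% at the centre, and over snoRNA genes the H3K4me2-antibody curve lay above the other, at 81.6% against 60.5% at the centre and 60.5% against 28.9% at 300 bp downstream.

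The setting of a snoRNA gene went with its state. All 17 snoRNA genes within 300 bp of another one on the same strand, the clusters processed from a common precursor, were under both antibodies. Genes of a cluster can lie under the same peak, as SNR78, SNR77, SNR76 and SNR75 did, so these 17 are not separate observations. The peaks over SNR67 and SNR53 also covered the tRNA gene YNCE0004C. Of the 51 that stood alone, 31 were under both, 15 under the H3K4me2 antibody alone, 0 under the H3K4me3 antibody alone and 5 under neither. Of the 8 inside an ORF, where the snoRNA is cut from an intron, 4 were under both, 1 (SNR38 in TEF4) under the H3K4me2 antibody alone, 2 under the H3K4me3 antibody alone (SNR44 in RPS22B and SNR191 in NOG2) and 1 under neither (SNR59 in RPL7B). Both snoRNA genes found with the H3K4me3 antibody alone were thus intronic.

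Individual snoRNA genes spanned the whole range of scores. SNR52, which RNA polymerase III transcribes, had peaks of 439 and 407 bp at percentiles 99.4 and 99.7. The cluster of SNR78, SNR77, SNR76 and SNR75 on chromosome XIII lay under peaks of 1819 and 1484 bp, at percentiles 83.0 and 78.2. SNR65, SNR79 and SNR5 lay under H3K4me2-antibody peaks of 385 to 445 bp without a partner, at percentiles 24.1 to 52.9. SNR86 counted as under both through peaks that did not overlap, 692 bp with the H3K4me2 antibody and 186 bp with the H3K4me3 antibody. SNR161, SNR58, SNR62, SNR36, SNR31 and SNR59 were under no peak.

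The other structural RNA genes were also mostly under both antibodies. All 3 genes for the RNAs of large ribonucleoproteins were: SCR1, whose RNA scaffolds the signal recognition particle, had peaks of 797 and 714 bp at percentiles 99.1 and 100. RPR1, the RNA of RNase P, stood at percentiles 98.5 and 58.6, and NME1, the RNA of RNase MRP, at 44.9 and 48.6. Of the 6 entries for spliceosomal snRNA genes, 5 were under both, among them SNR6, the U6 gene of RNA polymerase III, at percentiles 90.8 and 76.6, and LSR1, the U2 gene. SNR14, the U4 gene, lay under an H3K4me2-antibody peak alone, at percentile 58.5.

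Ribosomal RNA genes stood apart from the other structural RNA genes. RDN5-1, a 5S gene, was under both antibodies, with peaks over 65.3% and 31.4% of its length, while the other 11 of 12 annotated nuclear rRNA genes were under neither. These genes are near-identical repeats, and the sources used here do not say how reads matching several copies were placed. Among the 39 remaining RNA genes, SRG1 (the regulatory transcript upstream of SER3), ICR1 (upstream of FLO11) and YNCM0001W were under both. RUF23, IRT1 (upstream of IME1) and ZOD1, a locus known to bind the machinery of RNA polymerase III, were under the H3K4me2 antibody alone, with ZOD1 at percentile 82.0.

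Protein-coding genes were rarely under a peak, and they were shared less completely than RNA genes. Of 6002 nuclear ORFs, 405 (6.75%) lay under an H3K4me2-antibody peak and 329 (5.48%) under an H3K4me3-antibody peak, counting any overlap of at least 1 bp. The 515 ORFs under either comprised 219 under both (42.5%, 38.2 to 46.9), 186 under the H3K4me2 antibody alone (36.1%, 32.0 to 40.4) and 110 under the H3K4me3 antibody alone (21.4%, 17.9 to 25.2). These are 3.65%, 3.1% and 1.83% of all nuclear ORFs, which is the background for the gene groups below. The excess of ORFs under the H3K4me2 antibody alone was not kept when both nuclear lists held the 735 peaks of highest score: 27.4% were then under the H3K4me2 antibody alone and 27.6% under the H3K4me3 antibody alone. It turned when a peak's centre had to lie in the ORF (26.5% and 34.8%) or when the overlap had to reach 50% of the shorter interval (27.3% and 31.8%). The excess was kept with the upper 50% of each list by score (41.4% and 15.98%) and with peaks extended by 100 bp (36.4% and 17.95%). It was also kept with peaks within 200 bp merged (36.1% and 21.4%) and for ORFs at least 300 bp from RNA genes (36.0% and 24.1%).

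ORFs under the H3K4me3 antibody alone were long. Their median length was 1723.5 bp (1593 to 1917), against 806.5 bp (691 to 871) for those under the H3K4me2 antibody alone, 930 bp for those under both and 1221 bp for ORFs under neither. A longer ORF offers more positions to a peak, and the H3K4me2 group was shorter than the ORFs without a peak. Within 300 bp of a non-coding RNA gene lay 45 of the 219 ORFs under both antibodies (20.6%), 29 of the 186 under the H3K4me2 antibody alone (15.6%) and 5 of the 110 under the H3K4me3 antibody alone (4.55%), against 3.59% of the ORFs under neither.

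**Figure D3:**
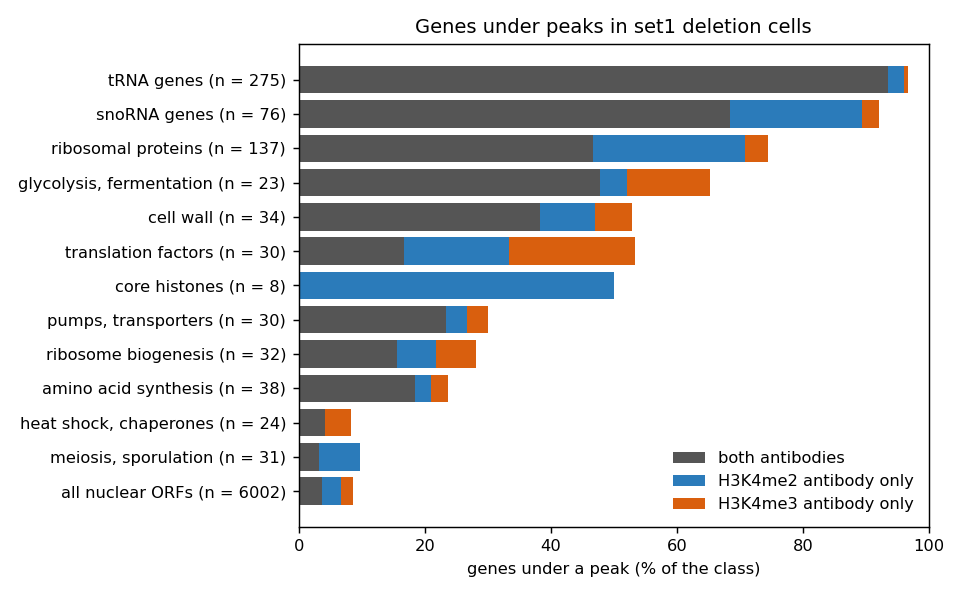
Share of genes in the gene groups drawn (x axis, percent of the group) under peaks of both antibodies (grey), the H3K4me2 antibody alone (blue) or the H3K4me3 antibody alone (orange), with the number of genes in parentheses. Left out are RNA classes other than tRNA and snoRNA genes, the genes for proteins that process or bind the small RNAs, and the groups added later. Of the groups drawn, tRNA genes stood highest with 93.5% under both, and all nuclear ORFs stood at 3.65%, above core histones (0%) and meiosis genes (3.23%) alone, and the histone bar is blue throughout.

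The ribosomal protein genes, among the most transcribed of the genome, held the most peak-bearing ORFs of any list. Of 137 ORFs, 64 were under both antibodies (46.7%, 38.2 to 55.4), 33 under the H3K4me2 antibody alone, 5 under the H3K4me3 antibody alone (RPL16A, RPL26A, RPL6B, RPS16A and RPS7B) and 35 under neither. RPL10, RPL28, RPL32 and RPS2 were covered in full by both antibodies. RPL41B was covered in full, RPS29A over 88.3% and RPS20 over 78.7% of the ORF by the H3K4me2 antibody alone. Large-subunit genes (RPL and RPP, 81 ORFs) gave 37 under both and 23 under the H3K4me2 antibody alone, and small-subunit genes (56 ORFs) gave 27 and 10. Most of these proteins are encoded by paralogous pairs: in 19 of 59 pairs the paralogs had the same state and in 40 they differed. Paralogs are similar in sequence, so their values are less certain than those of single genes.

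Glycolysis and fermentation genes had a share under both antibodies close to that of ribosomal protein genes. Of 23 ORFs, 11 were under both (47.8%, 26.8 to 69.4), among them CDC19 (pyruvate kinase) with 98.2% and 100% of the ORF covered, FBA1 (aldolase) with 100% and 92.9%, ADH1 (alcohol dehydrogenase) with 74.8% and 72.1%, and ALD6 (acetaldehyde dehydrogenase) in full. ENO2 (enolase) was under the H3K4me2 antibody alone, over 12.6% of the ORF. The genes of the phosphofructokinase subunits, PFK1 and PFK2, and PGI1 (phosphoglucose isomerase) were under the H3K4me3 antibody alone, over 9.14%, 18.9% and 13.5%. Peaks of 1 antibody thus covered a small part of the ORF here. The 11 ORFs under both had median covers of 62.4% and 62.1%, but not all were covered widely. HXK1 was covered over 15.8% and 53.3%, and TDH3 over 28.8% and 22.5%.

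Translation factor genes were divided between the antibodies. Of 30 ORFs, 5 were under both, 5 under the H3K4me2 antibody alone and 6 under the H3K4me3 antibody alone. YEF3, the elongation factor 3 gene, held the widest peaks of both nuclear lists, 3323 and 3119 bp, over 100% and 99.5% of its ORF. The genes under the H3K4me2 antibody alone were TEF1 and TEF2 (elongation factor 1 alpha), EFT2 (elongation factor 2), GCD11 and CDC33, which were touched over 21 to 136 bp, or 0.83% to 8.59% of the ORF. Those under the H3K4me3 antibody alone were NIP1 and PRT1 (subunits of initiation factor 3), PAB1 (poly(A)-binding protein), TIF4631, TIF5 and SUP35, covered over 8.2% to 23.3%. The limit given for ribosomal protein paralogs holds for duplicated translation factor genes too, such as TEF1 and TEF2.

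Among genes of the cell surface, most of the ORFs with a peak were under both antibodies. Of 34 cell wall genes 13 were under both antibodies, with CCW12 and CWP2, which encode wall mannoproteins, covered in full by both and UTH1 over 79.0% and 87.9%. DSE1, PIR1 and CTS1 (chitinase) were under the H3K4me2 antibody alone, and SCW4 and CWP1 under the H3K4me3 antibody alone. Of 30 pump and transporter genes 7 were under both: PMA1, the plasma membrane proton pump, with 95.4% and 93.4% of its ORF covered, PHO84 (phosphate transporter) in full, the hexose transporter genes HXT1, HXT2 and HXT3, and the amino acid permease genes BAP2 and DIP5. AGP1, another such permease gene, lay under the H3K4me3 antibody alone, over 25.4%. MEP3, an ammonium permease gene, was touched by an H3K4me2-antibody peak over 2.45%. An RNA gene lay within 300 bp of MEP3 and within 300 bp of PHO84.

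Genes of amino acid synthesis and of ribosome assembly held fewer peaks. Of 38 genes of amino acid and one-carbon synthesis, 7 were under both, among them ILV5 in full, GLN1 (glutamine synthetase) over 90.0% and 77.5%, and GCN4, the transcription factor of the pathway, over 53.4% and 100%. GCN4 lay within 300 bp of an RNA gene, and the H3K4me3-antibody peak that covered it in full also covered the tRNA gene YNCE0010W. MET6 was under the H3K4me2 antibody alone and SAH1 under the H3K4me3 antibody alone. Of 32 ribosome biogenesis genes, 5 were under both (NOP1, NSR1, DBP2, NOG2 and NOG1), NOP10 and TIF6 under the H3K4me2 antibody alone and UTP10 and RRP5 under the H3K4me3 antibody alone. The ORF of NOG2 holds the snoRNA gene SNR191. NOP10 has an ORF of 177 bp, while the ORFs of UTP10 and RRP5 have 5310 and 5190 bp, the same order of lengths as over all ORFs.

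Core histone genes were under the H3K4me2 antibody or under none. HTA1, HTB1, HTB2 and HHT1, 4 of 8 genes, lay under H3K4me2-antibody peaks over 15.3% to 44.3% of the ORF, at percentiles 3.67 to 47.0, and 0 of 8 lay under an H3K4me3-antibody peak, with an exact interval that reaches 36.9%. Heat shock and chaperone genes were at the background, with 1 of 24 under both (HSP150, also a wall protein gene) and 1 under the H3K4me3 antibody alone (SSC1). Of 31 meiosis and sporulation genes, silent in growing cells, NDT80 was under both and SPO13 and SPO11 were under the H3K4me2 antibody alone, and all 3 lay within 300 bp of an RNA gene. Of 23 genes for proteins that process or bind the small RNAs, POP6 was under both and lay near an RNA gene too.

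A pair of gene groups was added after the values had been seen, since several members stood among the ORFs found with the H3K4me3 antibody alone. Of 21 genes for cytosolic aminoacyl-tRNA synthetases, which charge tRNAs, 6 were under the H3K4me3 antibody alone (ILS1, KRS1, MES1, YHR020W, DPS1 and HTS1), THS1 was under both and 0 were under the H3K4me2 antibody alone. The covered part of these 6 ORFs ranged from 0.726% for YHR020W to 30.3% for KRS1, and the 15 bp of YHR020W lay under the shared peak over the tRNA gene YNCH0006C. Of the 8 genes of the CCT chaperonin, which folds actin and tubulin, TCP1, CCT5, CCT6 and CCT7 were under the H3K4me3 antibody alone and the other 4 under neither. Because these groups were picked for this pattern, their counts support nothing further.

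Unshared peaks of the 2 antibodies lay in different places. With peaks over RNA genes left out, the centre of 163 of 307 unshared H3K4me2-antibody peaks fell outside ORFs (53.1%, 47.3 to 58.8), against 14 of 193 unshared H3K4me3-antibody peaks (7.25%, 4.02 to 11.9). Of 239435 positions spaced 50 bp apart along the chromosomes, those in RNA genes left out, 26.7% fell outside ORFs, so the former share stood above that of the genome and the latter below it. Shared peaks lay between, with 33.2% outside ORFs for the H3K4me2 list and 21.2% for the H3K4me3 list. Equal numbers of nuclear peaks gave 60.7% and 7.41% for the unshared peaks. With the upper 50% of each list by score, they were 63 of 79 (79.7%) and 8 of 32 (25%).

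The intergenic H3K4me2-antibody peaks were found in every kind of intergenic region. Among the 307 unshared peaks, 50 were centred between divergent genes (16.3%), 63 between tandem genes (20.5%) and 39 between convergent genes (12.7%), where the genome positions gave 9.05%, 13.3% and 3.95%. For the H3K4me3 antibody the counts were 8, 4 and 2 of 193. Their median widths were 187.5, 185 and 216 bp for the H3K4me2 antibody, close to those of peaks inside ORFs (180 bp).

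**Figure D4:**
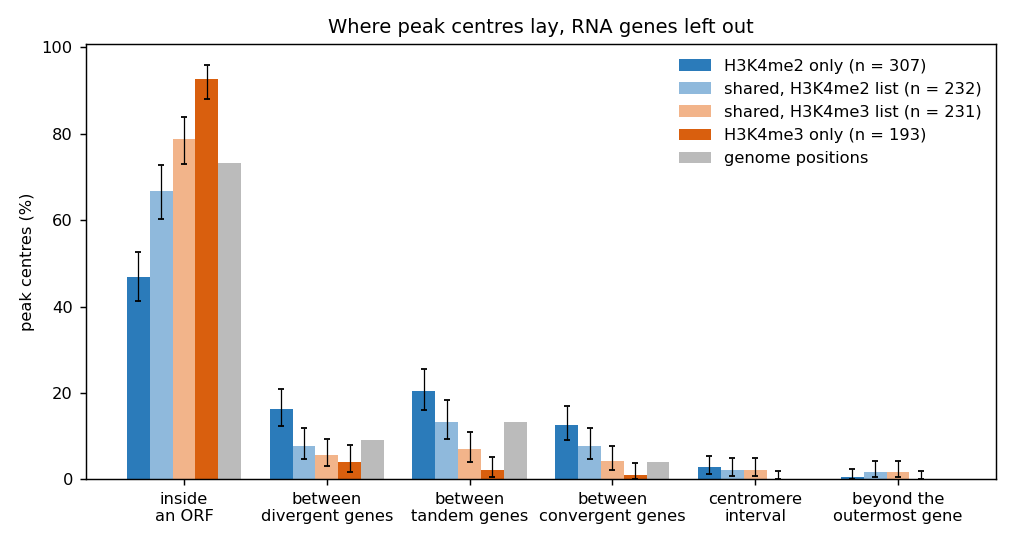
Place of the peak centre (x axis) as a share of the nuclear peaks over no RNA gene (y axis, percent), for unshared and shared peaks of each list and for evenly spaced genome positions (grey). Bars are shares and whiskers exact 95% intervals over peaks, and other genes (below 1%) are not drawn. Unshared H3K4me2-antibody peaks were centred in an ORF in 46.9% of cases and unshared H3K4me3-antibody peaks in 92.7%, against 73.3% of genome positions.

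Along the ORF, the median centre of peaks in set1 deletion cells lay near the middle. The median position, where 0% is the start codon and 100% the stop codon, was 50% (40.3 to 57.0) for 299 H3K4me2-antibody centres and 55.2% (50.4 to 57.7) for 361 H3K4me3-antibody centres. Of 5 equal parts of the ORF, the first held 27.8% of the H3K4me2-antibody centres and the last 27.4%. For the H3K4me3 antibody these shares were 15.2% and 24.4%. In cps25_WT cells, whose lists held no peak that overlapped one of the same antibody in set1 deletion cells (0 of 874 and 0 of 735), the medians were 17.8% and 15.3%. The 95% intervals of the wild-type medians, 17.4 to 18.5 and 14.8 to 15.97, did not reach those of the set1 deletion lists. With no such overlap, the wild-type centres could lie only at other sites. These medians therefore describe different sites and show no shift at the same ones.

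Unshared centres were placed differently along the ORF by each antibody. With each ORF divided into 5 equal parts, 90 of the 144 unshared H3K4me2-antibody centres in an ORF lay in the first or last part (62.5%), and in ORFs of at least 1000 bp 49 of 65 did (75.4%). Of the 179 unshared H3K4me3-antibody centres, 67 lay in these outer parts (37.4%), and 58 of 157 did in ORFs of at least 1000 bp (36.9%). The unshared H3K4me2-antibody centres thus lay mostly near the ends of ORFs, and the unshared H3K4me3-antibody centres were spread along them. Shared centres did not show this contrast, with 48.4% (H3K4me2 list) and 41.8% (H3K4me3 list) in the outer parts, and 47.7% and 48% in ORFs of at least 1000 bp. In ribosomal protein ORFs the median position was 30.5% (22.7 to 44.8) for all 95 H3K4me2-antibody centres and 50.5% (41.3 to 56.3) for all 69 H3K4me3-antibody centres. The cps25_WT lists gave 37.0% (36 centres) and 42.3% (58 centres) in these ORFs, with intervals (26.9 to 53.2 and 28.0 to 51.7) that overlapped those of set1 deletion cells. Since the cps25_WT lists held no peak overlapping a set1 deletion peak of the same antibody, their centres could lie only at other sites. The overlap of these intervals therefore does not show a like placement.

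Counts of ORFs around their ends gave the same picture in bp. Unshared H3K4me2-antibody peaks covered the point 400 bp upstream of the start codon in 75 ORFs and the point 100 bp upstream in 25. They covered the point 100 bp inside the ORF in 74 and the point 500 bp inside in 27. Coverage was thus low just before the start codon and about as low deeper in the ORF. Past the ORF end they covered 85 ORFs at the end itself and 99 at 125 bp downstream. Unshared H3K4me3-antibody peaks covered 5 ORFs at the start codon and 28 at 500 bp inside, 38 at 175 bp before the ORF end, 10 at the end and 3 at 200 bp downstream. These peaks were thus few just outside the ORF, while the H3K4me2-antibody peaks were most frequent just past its end. Shared peaks of the H3K4me2 list covered 112 ORFs at the end and 111 at 100 bp downstream, and those of the H3K4me3 list 91 and 48.

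**Figure D5:**
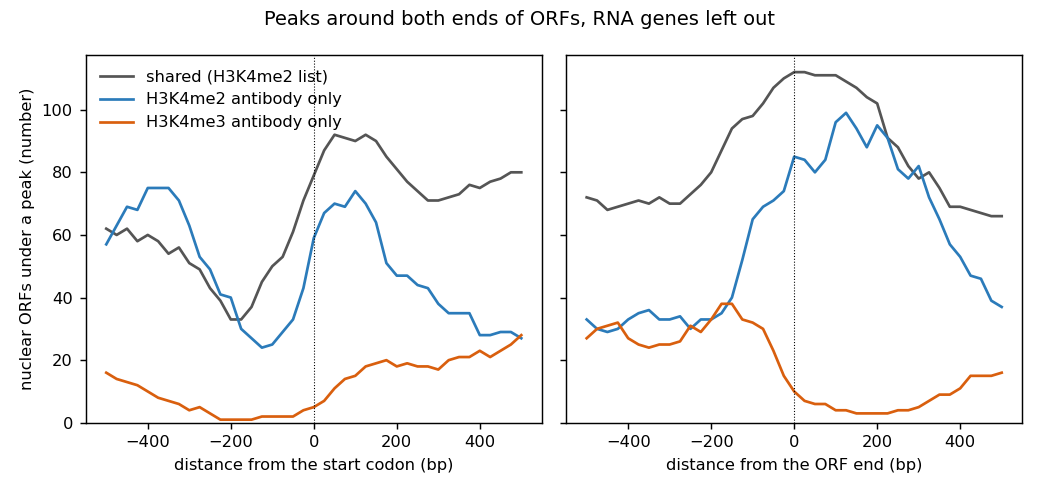
Number of nuclear ORFs under a peak (y axis) at each distance in bp from the start codon (left; negative is upstream) and from the ORF end (right; positive is downstream), with peaks over RNA genes left out, for unshared H3K4me2-antibody (blue), unshared H3K4me3-antibody (orange) and shared peaks of the H3K4me2 list (grey). Unshared H3K4me2-antibody peaks dipped to 24 ORFs at 125 bp before the start codon and rose to 99 at 125 bp past the end, while unshared H3K4me3-antibody peaks fell from 38 at 175 bp before the end to 3 at 200 bp past it.

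Single loci show these placements. The highest-ranked unshared H3K4me2-antibody peak over an ORF (chrIV:1135681-1136037, percentile 99.8, 357 bp) was centred upstream of SWR1, the ATPase gene of the complex that places the histone variant H2A.Z, and covered 106 bp of its ORF. Those at IMD2 (percentile 72.1), a gene of GTP synthesis, and at SOM1 (percentile 69.9), a mitochondrial peptidase subunit gene, likewise lay mostly between genes. The widest, of 766 bp, lay between the convergent genes RPS20 and YLF2. Another, 462 bp wide at percentile 24.5, covered 87.5% of SDC1, the gene of Cps25. Unshared peaks at BAP2 (483 bp) and at MRH1 (606 bp) lay in ORFs that counted as under both through other peaks.

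Among unshared H3K4me3-antibody peaks over ORFs and no RNA gene, those named here for score or width were all centred inside an ORF. The highest score of them was at ILS1, the isoleucyl-tRNA synthetase gene, with 172 bp at percentile 61.1. The widest, of 654 bp, covered 53.6% of SRP40, a nucleolar protein gene. HPF1 (398 and 521 bp) and ECM33 (550 bp), both of cell surface proteins, FAS2 (523 bp), a fatty acid synthase gene, VHR2 (497 bp) and API2 (199 bp) also held such peaks, but a further peak made each of these 5 ORFs count as under both. MDM35 held 1 of 175 bp at percentile 48.7 and was under the H3K4me3 antibody alone.

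Where both antibodies had a peak, the H3K4me2-antibody peak was usually the wider one. Among 459 peaks that overlapped 1 peak each of the other list, it was wider in 332 pairs (72.3%, 68.0 to 76.4), with a median difference of 33 bp (25 to 40). The median difference was 22 bp over tRNA genes (251 pairs), 51 bp over ORFs (135 pairs) and 232.5 bp (172 to 317) over snoRNA genes, where it was wider in 33 of 34 pairs. Centres lay a median of 19.5 bp apart. In 234 pairs the H3K4me3-antibody peak lay inside the other, in 41 the reverse held and in 184 the peaks were staggered.

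The extremes ran in both directions. At RPS12 and RAD17 the H3K4me2-antibody peak had 1003 bp and the H3K4me3-antibody peak 347 bp, at PSA1 (a mannose metabolism gene) 1504 and 932 bp, at RPS14B 779 and 269 bp, and at NME1 and SNR66 926 and 419 bp. At CHA1, the gene of a serine deaminase, the order was turned, with 211 and 721 bp. Over NME1 and SNR66 the narrower H3K4me3-antibody peak ended before SNR66, which therefore counted under the H3K4me2 antibody alone. Centres were farthest apart at RPL31A with SNR63, by 282.5 bp, and SNR63 also counted under the H3K4me2 antibody alone.

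Centromeric regions were found far more often with the H3K4me2 antibody. The gene table holds no centromeres, so the gap between the innermost ORFs of the left and right arm of each chromosome, 630 to 2541 bp long, was taken to hold it. An H3K4me2-antibody peak lay in 14 of these 16 gaps, all except those of chromosomes XII and XV, with 1 peak in each, widths of 150 to 378 bp and a median percentile of 95.3 (range 56.0 to 99.6). An H3K4me3-antibody peak lay in 5, those of chromosomes II, III, IV, XIII and XVI, with widths of 148 to 199 bp and a median percentile of 85.3, and each overlapped the H3K4me2-antibody peak. On chromosome IV, for example, the peaks were chrIV:449659-449888 (percentile 99.6) and chrIV:449686-449862 (percentile 96.1). The 16 gaps add up to 0.146% of genome positions, and the 14 peaks to 2.6% of the 539 H3K4me2-antibody peaks over no RNA gene. Neither list of cps25_WT cells had a peak in any gap, but since each held no peak overlapping one of the same antibody in set1 deletion cells, this says nothing of the gaps where that antibody had a set1 deletion peak.

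On chrM the lists differed more than on the nuclear chromosomes. The 53 H3K4me2-antibody peaks covered 21613 bp, 25.2% of the 85777 bp up to the last annotated base, and the 8 H3K4me3-antibody peaks covered 2840 bp (3.31%). All 8 overlapped H3K4me2-antibody peaks, 7 of the 53 (13.2%, 5.48 to 25.3). The H3K4me3 antibody thus had no chrM peak of its own, at percentiles of 2.83 to 51.3 within its list. With the upper 50% of each list by score, chrM held 22 and 1 peaks.

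Both mitochondrial rRNA genes were under both antibodies. The 15S gene was covered over 92.7% by the H3K4me2 antibody and 73.4% by the H3K4me3 antibody, and the 21S gene over 62.9% and 25.03%. These 2 genes held 6 of the 8 H3K4me3-antibody peaks, and the remaining 2 lay over no annotated gene. The H3K4me2 antibody alone covered parts of 8 of the 19 annotated protein-coding genes: COB (an apocytochrome gene) with the intron-encoded BI3 and BI4, OLI1 (an ATP synthase subunit), VAR1 (a ribosomal protein), SCEI, COX2 (a cytochrome oxidase subunit) and Q0255. These are not 8 separate loci, since SCEI lies inside the 21S gene and COB, BI3 and BI4 overlap each other. The H3K4me2 antibody also touched 7 of 24 tRNA genes, those labelled tP(UGG)Q, tW(UCA)Q, tS(UGA)Q2, tS(GCU)Q1, tR(ACG)Q2, tT(UAG)Q2 and tM(CAU)Q2, and RPM1, the RNA of mitochondrial RNase P. The largest stretch without an H3K4me2-antibody peak, of 22216 bp (chrM:10945-33160), held COX1, ATP8 and ATP6. Mitochondrial tRNA genes, at 7 of 24 under the H3K4me2 antibody and 0 under the H3K4me3 antibody, did not share the near-complete coverage of nuclear tRNA genes.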

How the data were processed

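Chromatin immunoprecipitation with sequencing was analysed from 1 deposited peak list for each antibody in set1delta cells, assigned by sample title. The submitters' processing notes name Bowtie (version 1.1.2), MACS2 (version 2.1.1) and sacCer3. Settings, control and handling of repeats are not given in the sources used here; depth is unknown. Each deposited peak carried a score of unstated scale from the authors, used only to rank or filter peaks within a list. BED starts were read as counted from 0.

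Genes came from the RefSeq table of R64 (6477 genes), with strand read from systematic names. Overlap meant at least 1 bp. Overlaps were computed in Python 3.11.15 with pandas 2.3.3 and numpy 2.4.6, and exact intervals with scipy 1.17.1. The overlap routine was tested against bedtools 2.31.1 on the 4 peak lists and the nuclear genes themselves (10 pairs of lists, 0 differing). Intervals of medians come from ranks.

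Members and 11 gene lists (273 of 274 members written out found in the table) were chosen with earlier results of these data known. The 2 added lists, the placement of centres (and its comparison with wild-type lists) and the centromere gaps were chosen after values were seen. Named were the 5 highest and 5 widest peaks of each set, RNA genes in classes with few exceptions, chrM genes under a peak, up to 3 members of each list per state by covered share, and extreme pairs. Further members were named after their values were seen. Alternatives were a score limit, equal list lengths, a stricter overlap, extended or merged peaks, peak centres and distance from RNA genes. No sequence was used.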

Additional observations from a re-analysis of the deposited data

How the results depend on the processing

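Of 83 recomputed values, 55 stayed within the counting interval or within 1.5 times the count reported, and 28 moved. With the upper 50% of each list by score, 75.1% of H3K4me2-antibody and 89.7% of H3K4me3-antibody nuclear peaks were shared, 34.2% of snoRNA genes were under both antibodies, and 41.4% and 15.98% of peak-bearing ORFs were under the H3K4me2 and the H3K4me3 antibody alone. In that setting the median H3K4me2-antibody position was 61.9% of the ORF, median widths were 331 and 301.5 bp, chrM held 22 and 1 peaks, and 79.7% and 25% of unshared peaks were centred outside ORFs. With 735 nuclear peaks each, 68.6% of H3K4me2-antibody peaks were shared, their median width was 300 bp, 60.7% of the unshared ones were centred outside ORFs, and 27.4% and 27.6% of peak-bearing ORFs were under 1 antibody alone. With an overlap of at least 50% of the shorter interval the latter were 27.3% and 31.8%, and 27.1% and 8.71% of peaks lay over no gene. With the peak centre inside the ORF they were 26.5% and 34.8%. Peaks extended by 100 bp gave 65.8% of H3K4me2-antibody peaks shared and 11.8% over no gene. Merging peaks within 200 bp gave median widths of 303 and 279 bp and 34 H3K4me2-antibody peaks on chrM. The causes were not tested, apart from what each setting removes by construction. The counts of centromere gaps with a peak did not change under the 3 settings run. The lowest of these peaks stood at percentiles 56.0 and 70.8. The score limit and the equal list lengths therefore kept all of them by construction, and these settings are no check. No paired analysis was possible because each antibody had 1 list. With 1 library each and unknown depth, spread between replicates is not measured, and a peak missing from a list may have been below its threshold.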

Other observations

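The highest score of the H3K4me2 list belonged to a peak over no annotated gene (chrXIV:771905-772406, 502 bp), between YNR071C and the hexose transporter gene HXT17, and the H3K4me3 list had a peak of 662 bp there at percentile 98.1. Another shared peak over no gene lay between FAF1 and the ribosomal protein gene RPL2B (chrIX:316264-316501), at percentile 98.2 of the H3K4me2 list. Beyond the outermost gene of a chromosome arm, 6 H3K4me2-antibody peaks on 5 of 32 arms and 4 H3K4me3-antibody peaks on 4 arms were found, and 4 of each list were shared.

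The cps25_WT list of each antibody held no peak that overlapped a set1 deletion peak of the same antibody, 0 of 874 and 0 of 735, but it still held peaks where the other antibody alone had one. With peaks over RNA genes left out, the centres of 104 of 307 unshared H3K4me2-antibody peaks lay under a wild-type H3K4me3 peak (33.9%, 28.6 to 39.5), where 20.4% of evenly spaced genome positions did. Inside ORFs these shares were 72 of 144 (50%, 41.6 to 58.4) and 22.4%. The genome positions were not matched for place along the ORF. Of 5 equal parts, the first held 63.0% of the wild-type H3K4me3 centres and 30.6% of the unshared H3K4me2-antibody centres. For unshared H3K4me3-antibody peaks and the wild-type H3K4me2 list, 52 of 193 centres (26.9%, 20.8 to 33.8) compared with 26.0% of positions, and inside ORFs 52 of 179 (29.1%, 22.5 to 36.3) compared with 28.3%, so these shares were near the background. Shared peaks were not compared, since each overlaps a set1 deletion peak of the other antibody, which that antibody's wild-type list does not touch.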
